A study of Mus musculus with 10 samples.

Results

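Heat shock and chaperone genes were followed as 9 genes of the 31053 in the deposited count matrix: Hspa1a, Hspa1b, Hspa8, Hsp90aa1, Hsp90ab1, Hsph1, Dnajb1, Dnaja1 and Hspa5. They were taken by name, and all 9 were found in the matrix. The study sorted CD45+ immune cells from whole mouse brain and profiled them by droplet single-cell RNA sequencing, in order to ask whether the inflammasome sensor Nlrp3 shapes microglial activation in the healthy brain and upon amyloid pathology. The 4 genotypes were littermates: WT mice (Nlrp3+/+), Nlrp3KO mice (Nlrp3-/-, a deletion in the whole body), Nlrp3+/+ mice carrying the APP/PS1 transgenes, and Nlrp3KO APP/PS1 mice. WT and Nlrp3KO mice were collected at 3, 6 and 9 months of age, and the APP/PS1 and Nlrp3KO APP/PS1 mice at 3 and 9 months. APP/PS1 is a model of amyloid deposition whose transgenes, encoding a Swedish-mutant APP and a mutant presenilin-1, are neuronal. Each of the 10 libraries held the pooled cells of 3 mice, 2 males and 1 female, and each genotype at each age was 1 library. All groups shared a dissociation at low temperature with actinomycin D, an inhibitor of transcription.

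Chaperones of the HSP70 family bind unfolded stretches of other proteins and release them in cycles of ATP hydrolysis that J-domain proteins start and nucleotide exchange factors end, and HSP90 proteins take over many of these clients for the last steps of folding. Under proteotoxic stress the transcription factor HSF1 forms trimers on heat shock elements, arrays of the inverted 5-base unit NGAAN, and induces the cytosolic members, whereas Hspa5 belongs to the endoplasmic reticulum and is induced by the unfolded protein response through ER stress response elements. Several of them are also known to be induced while tissue is dissociated into single cells.

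Hspa1a and Hspa1b, the stress-inducible HSP70 genes, lie next to each other in the same direction on chromosome 17 (mm10, chr17:34969190-34972156 and chr17:34956436-34959238, minus strand), with 9951 bases between them. Their promoters are shown because the 2 genes followed each other over the libraries, and those of Hsph1 and Hspa5 because they gave the contrast within the list. Each RefSeq window (GRCm38.p6) runs from 250 bases before to 50 bases after the annotated start, 5′ to 3′ along the gene, at chr17:34972107-34972406, chr17:34959189-34959488, chr5:149636287-149636586 (the first of 2 windows for Hsph1) and chr2:34771840-34772139 in this order. Capitals mark the matches to the heat shock motifs GAANNTTC and TTCNNGAA and to the ER stress response element (CCAAT, any 9 bases, then CCACG), each searched on both strands.
Hspa1a: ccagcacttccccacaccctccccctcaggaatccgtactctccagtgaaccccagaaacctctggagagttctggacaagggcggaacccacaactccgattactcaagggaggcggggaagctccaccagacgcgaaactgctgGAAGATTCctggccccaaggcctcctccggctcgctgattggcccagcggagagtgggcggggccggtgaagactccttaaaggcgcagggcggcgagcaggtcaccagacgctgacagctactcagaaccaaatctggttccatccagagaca
Hspa1b: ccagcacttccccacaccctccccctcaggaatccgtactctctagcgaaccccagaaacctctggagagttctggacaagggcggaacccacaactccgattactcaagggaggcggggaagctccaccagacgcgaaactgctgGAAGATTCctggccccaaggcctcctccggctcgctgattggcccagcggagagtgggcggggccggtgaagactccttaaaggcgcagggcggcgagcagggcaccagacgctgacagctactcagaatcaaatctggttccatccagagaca
Hsph1: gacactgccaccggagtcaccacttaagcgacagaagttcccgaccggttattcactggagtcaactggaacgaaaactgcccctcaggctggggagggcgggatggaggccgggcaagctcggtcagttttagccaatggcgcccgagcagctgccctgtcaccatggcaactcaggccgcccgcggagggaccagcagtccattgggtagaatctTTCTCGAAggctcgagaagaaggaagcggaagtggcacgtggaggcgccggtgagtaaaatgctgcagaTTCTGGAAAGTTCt
Hspa5: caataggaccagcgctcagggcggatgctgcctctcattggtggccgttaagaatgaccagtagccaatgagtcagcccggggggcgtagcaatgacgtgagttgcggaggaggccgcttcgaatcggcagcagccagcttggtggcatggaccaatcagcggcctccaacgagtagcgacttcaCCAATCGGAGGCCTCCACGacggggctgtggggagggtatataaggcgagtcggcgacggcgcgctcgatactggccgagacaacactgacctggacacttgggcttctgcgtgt

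The windows of Hspa1a and Hspa1b were identical at 296 of 300 bases (98.7%), and both held GAAGATTC with its first base 104 bases before the start. The Hsph1 window held TTCTCGAA 33 bases before the start and the longer run TTCTGGAAAGTTC, in which 2 inverted pairs overlap, 36 bases after it. The Hspa5 window held neither heat shock motif and 1 full ER stress response element, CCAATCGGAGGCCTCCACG, 65 bases before the start. Among all 32851 mouse promoter windows, GAANNTTC occurred in 7.86%, TTCNNGAA in 8.52%, a run of 3 units in 0.603% and the ER stress response element in 0.119%. A match in these letters is a description of the window and was not tested as a site. Dnaja1 held GAAAATTC in 1 of its 3 windows, and the 2 windows of Dnajb1 held none of the motifs. In all, 6 of the 9 members had a window.

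Because both genes are alike, reads could be split between Hspa1a and Hspa1b. Stretches of 91 bases, the length of the sequenced cDNA read, were shared between the 2 transcripts at 49.1% of the positions of Hspa1a and 52.0% of those of Hspa1b, but at 0 of the 410 positions within the last 500 bases, where the 3′ libraries take most of their reads. Dnaja1 (chr4:40722150-40737149, plus strand) overlaps Mir207 on the same strand, and Hspa8 (chr9:40800984-40810087, plus strand) overlaps Snord14c, Snord14d and Snord14e on the same strand.

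Of the 45472 cells used, 40547 were microglia in the authors' annotation, and the remaining 4925 belonged to 19 other named cell types. Microglia per library ranged from 1755 to 8208, their summed unique molecular identifiers (UMIs, each counting 1 captured RNA molecule) from 9357431 to 35107144, the median per cell from 3978 to 5985 and the median mitochondrial share from 2.35 to 3.67%. The summed CPM (UMIs of a gene scaled to the same total in every sum) of 6 microglia markers were 20529 to 24667 in the microglia sums, against 4.49 to 14.0 for 5 border macrophage markers 0.402 to 2.65 for 4 T cell markers, 0.387 to 43.0 for the neutrophil, 32.6 to 52.3 for the B cell and 42.9 to 74.2 for the ILC2 markers. The dendritic cell list summed to 1679 to 2062 CPM, and it holds Siglech, a gene that microglia are known to express. Nlrp3 stood at 0 UMIs in all 5 Nlrp3KO libraries and at 34.4 to 53.7 CPM in the 5 others, as labelled. Of the barcode sequences, 246 occurred in more than 1 library. In the non-diseased pair at 9 months 2.78% of genes were more than 2-fold higher in the Nlrp3KO library, against 0.251 to 0.643% in the 4 other pairs. In the deposited annotation each age was a batch of its own, and the effect of one cannot be told apart from that of the other. Each Nlrp3KO library shared its batch with its Nlrp3WT counterpart. In such sums, fewer expressing cells and less RNA per cell cannot be told apart.

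In microglia, Hspa1a and Hspa1b were the members that varied most between libraries. At 3 months Hspa1a stood at 22.4 CPM in WT and 20.3 CPM in APP/PS1 microglia, against 4.83 CPM in Nlrp3KO and 2.85 CPM in Nlrp3KO APP/PS1 microglia. At 6 months it stood at 20.2 CPM in WT and 14.8 CPM in Nlrp3KO microglia. At 9 months it was 4.41 CPM in WT, 7.20 CPM in Nlrp3KO, 2.90 CPM in APP/PS1 and 5.77 CPM in Nlrp3KO APP/PS1 microglia. Thus both Nlrp3WT libraries at 3 months and both 6-month libraries were high, and the other 6 libraries were low. Over the 10 libraries the coefficient of variation of Hspa1a was 75.2%, whereas its median was 12% over 3265 genes of like mean level, and 0.613% of those genes varied at least as much. These libraries include the APP/PS1 pair at 3 months, which was singled out for its gap and holds the lowest value. Nothing is therefore read from this rank, and the coefficients of variation given below are descriptions.

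Hspa1b followed its neighbour. It stood at 12.2 CPM in WT and 11.4 CPM in APP/PS1 microglia at 3 months, against 3.04 and 1.51 CPM in their Nlrp3KO counterparts. The 6-month libraries held 13.1 CPM (WT) and 9.46 CPM (Nlrp3KO), and the 9-month libraries 1.76 CPM (WT), 3.95 CPM (Nlrp3KO), 1.45 CPM (APP/PS1) and 2.46 CPM (Nlrp3KO APP/PS1). The same 4 libraries were therefore high for both genes, and the Pearson correlation of their levels over the 10 libraries, given as a description of libraries that share batches, was 0.99. The coefficient of variation of Hspa1b was 80.8%.

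Hsph1, the HSP110 exchange factor of cytosolic HSP70, was highest at 3 months in the Nlrp3WT libraries, with 40.3 CPM in WT and 36.5 CPM in APP/PS1 microglia, against 27.1 CPM in Nlrp3KO and 22.8 CPM in Nlrp3KO APP/PS1 microglia. All 6 libraries of 6 and 9 months lay between 21.7 and 29.6 CPM. Dnajb1, the stress-inducible J-domain partner of HSP70, ranged from 42.5 CPM over a median of 53.8 CPM to 68.8 CPM, with its highest value in WT microglia at 3 months. Dnaja1, a farnesylated J-domain protein of the cytosol, ranged from 244 CPM over a median of 285 CPM to 369 CPM, again highest in WT microglia at 3 months. The coefficients of variation of these 3 genes were 21.3%, 15.2% and 13.0%, well below those of the inducible HSP70 genes. Their correlations with Hspa1a over the 10 libraries were 0.80 for Hsph1, 0.83 for Dnajb1 and 0.76 for Dnaja1.

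The abundant cytosolic chaperones were nearly even. Hspa8, the constitutive HSP70, ranged from 813 CPM over a median of 969 CPM to 1125 CPM. Hsp90aa1, the inducible HSP90, ranged from 235 CPM over a median of 257 CPM to 322 CPM, and Hsp90ab1, the constitutive HSP90, from 963 CPM over a median of 1018 CPM to 1171 CPM. Both HSP90 genes were highest in WT microglia at 3 months, and the remaining libraries of each gene overlapped between genotypes. Hspa5, the HSP70 of the endoplasmic reticulum also known as BiP, ranged from 797 CPM over a median of 856 CPM to 978 CPM, and its highest value was in APP/PS1 microglia at 9 months. The correlation of Hspa5 over the libraries was -0.34 with Hspa1a and 0.77 with Hspa8.

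**Figure D1:**
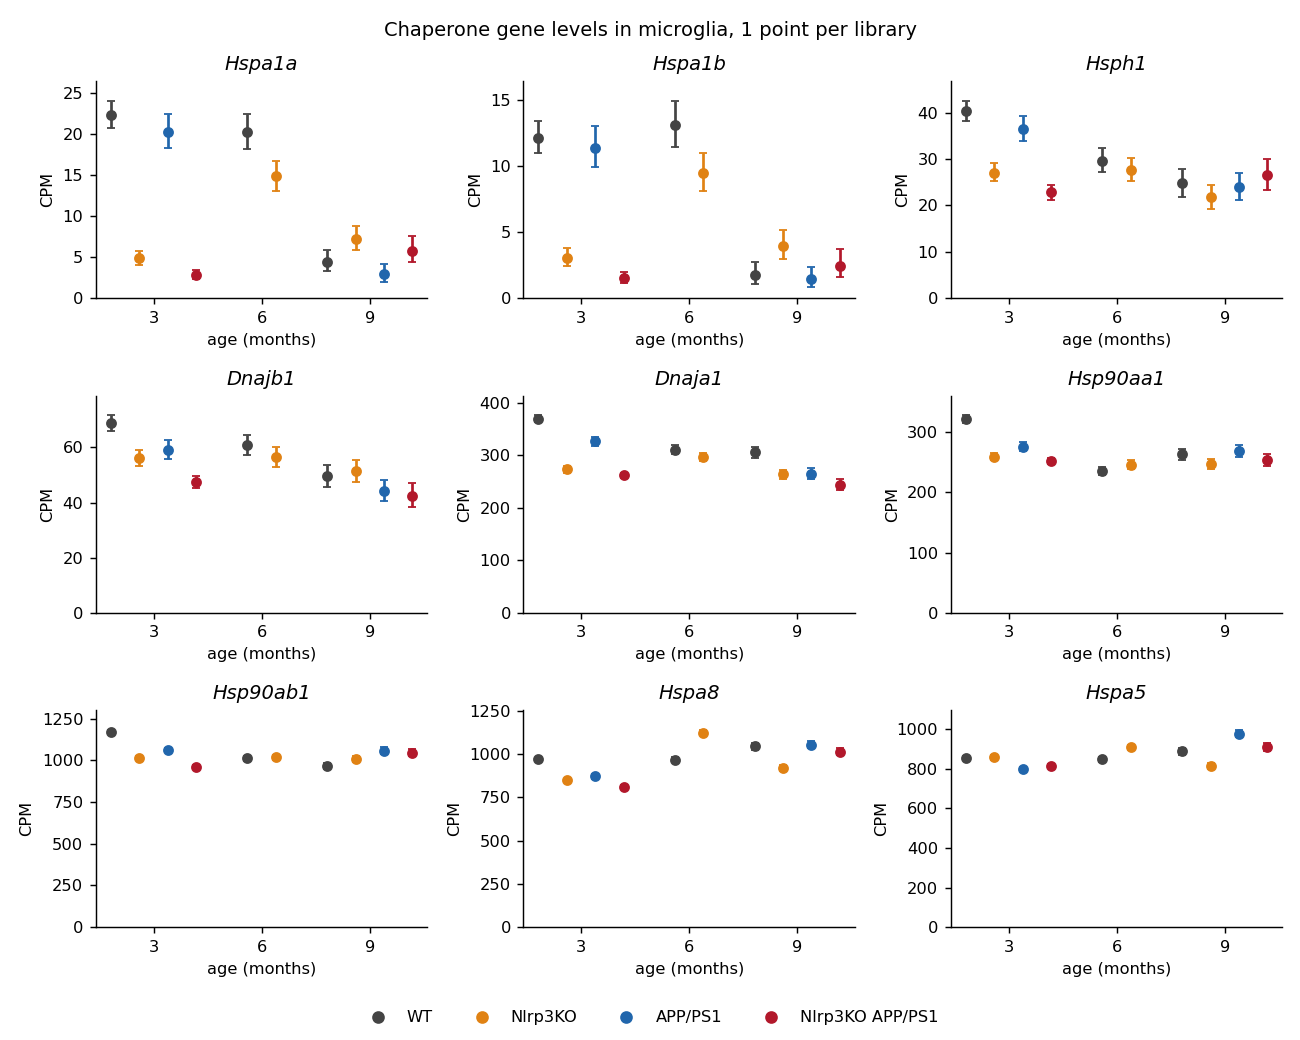
CPM of each of the 9 genes (1 panel each, vertical axis, from 0) in the microglia of the 10 libraries (horizontal axis, grouped by age), each point 1 library of 3 pooled mice with its exact 95% Poisson interval for counting error. Hspa1a was 20.3 and 22.4 CPM in the 3-month Nlrp3WT libraries and 2.85 and 4.83 CPM in their Nlrp3KO counterparts, whereas Hspa5 stayed between 797 and 978 CPM.

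The question whether Nlrp3 deletion changed these genes was addressed in the 5 pairs of a Nlrp3KO and a Nlrp3WT library of the same age and background. The inducible HSP70 genes were lower with the deletion at 3 months, in both backgrounds, and not at 9 months. In the non-diseased 3-month pair, Hspa1a had 135 UMIs in Nlrp3KO and 723 UMIs in WT microglia, a log2 ratio of -2.19 (95% interval -2.49 to -1.94). Its CPM was 4.63-fold lower without a prior count. In the APP/PS1 3-month pair, which had been singled out for its gap, Hspa1a had 100 against 388 UMIs, a log2 ratio of -2.80 (-3.16 to -2.51). Its CPM was 7.12-fold lower there without a prior count. The log2 ratio of Hspa1a was -0.45 (-0.68 to -0.21) at 6 months. At 9 months its sign turned, with 0.69 (0.20 to 1.23; 93 against 50 UMIs) in non-diseased and 0.95 (0.34 to 1.67; 54 against 32 UMIs) in APP/PS1 mice. The log2 ratios carry a prior count of 2 on each side, and the intervals are exact and cover counting error only, since each side is 1 library. In the 3-month sums the border macrophage markers stood at 7.95 CPM in WT and 8.30 CPM in Nlrp3KO, and at 7.78 CPM in APP/PS1 and 9.11 CPM in Nlrp3KO APP/PS1 microglia, and the 16 immediate-early genes at 1277 and 1363 CPM, and at 1434 and 1325 CPM. The median UMIs per cell were 4260 and 4499, and 5985 and 3978, in the same order, and their part in the ratios was not tested.

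Hspa1b gave log2 ratios of -1.97 and -2.86 in the non-diseased and APP/PS1 pairs at 3 months, -0.47 at 6 months, and 1.09 (0.39 to 1.99) and 0.69 (-0.22 to 1.78) at 9 months. Hsph1 was also lower with the deletion in both 3-month pairs, by -0.57 (-0.71 to -0.44) and -0.68 (-0.83 to -0.53), and its interval spanned 0 in the 3 later pairs. Dnajb1 behaved likewise, with -0.29 and -0.32 at 3 months and 3 later intervals that spanned 0. Dnaja1 was lower in each of the 5 pairs, by -0.44 and -0.32 at 3 months, -0.06 at 6 months, and -0.21 and -0.12 at 9 months, with all 5 intervals below 0. Hsp90aa1 gave -0.31 and -0.13 at 3 months, 0.07 at 6 months, and -0.09 and -0.09 at 9 months. Hsp90ab1 gave -0.20 and -0.14 at 3 months, 0.01 at 6 months, and 0.07 and -0.01 at 9 months, so that the signs of both HSP90 genes were mixed.

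Hspa8 gave -0.19 and -0.10 at 3 months, 0.22 at 6 months, and -0.19 and -0.06 at 9 months, so that its sign was mixed. Hspa5 was the member without a lower value at 3 months: its log2 ratios were 0.00 (-0.02 to 0.03) and 0.03 (0.00 to 0.06), with 0.10 at 6 months and -0.13 and -0.10 at 9 months, so that its sign was mixed as well. In both 3-month pairs, 2 of 9 members were more than 2-fold lower with the deletion, whereas 0.182% and 0.635% of all genes with at least 50 UMIs in the pair were. At 6 months and in the non-diseased and APP/PS1 pairs at 9 months, 0 members were more than 2-fold lower, against 0.228%, 0.526% and 0.35% of genes. In the non-diseased pair at 9 months 1 of 9 members (Hspa1b) was more than 2-fold higher, against 2.78% of genes. Members with an interval below 0 were 8 of 9 in both 3-month pairs, against 8.44% and 14.9% of genes, and those above 0 were 0 and 1, against 11.6% and 17.9%. At 6 months 3 of 9 lay below 0 (8.81% of genes) and 3 above (7.46%), an even split. At 9 months 4 of 9 lay below (12.2%) and 3 above (16.6%) in the non-diseased pair, and 4 of 8 below (13.6%) and 1 above (9.15%) in the APP/PS1 pair. Nothing is read from the counts of the APP/PS1 3-month pair, which was singled out. Hspa8, Hsp90aa1, Hsp90ab1, Dnaja1 and Hspa5 have many more UMIs than a typical gene, which narrows their intervals. This does not hold for Hspa1a and Hspa1b, with mean levels of 10.6 and 6.03 CPM.

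**Figure D2:**
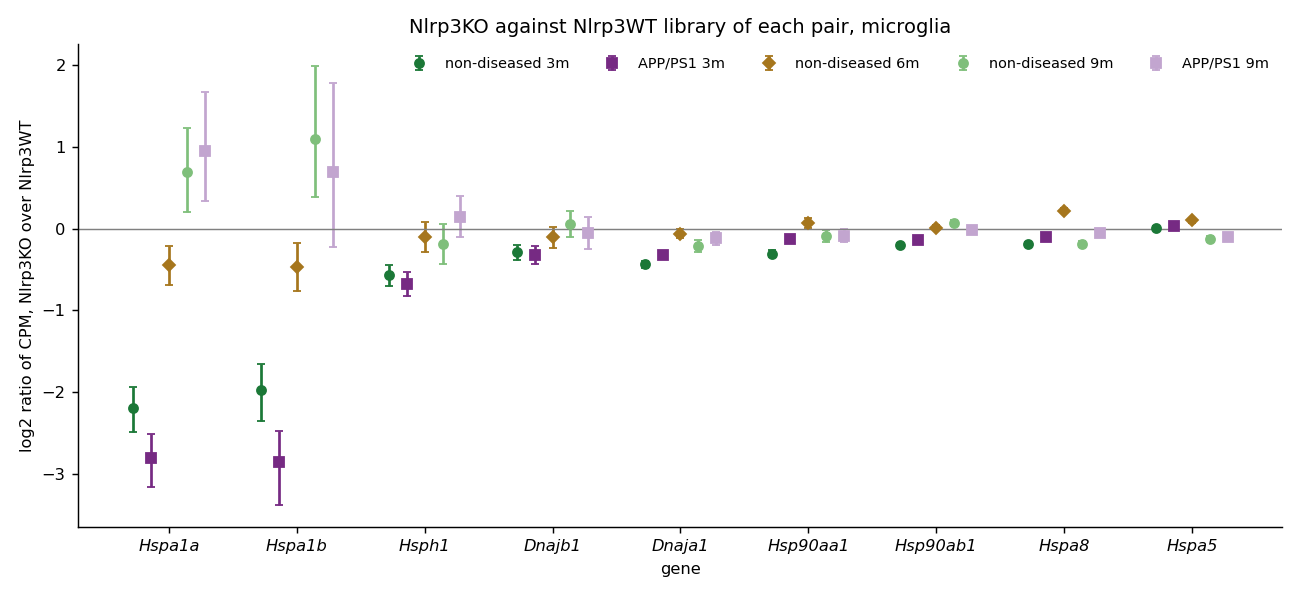
Log2 ratio of CPM in the Nlrp3KO over the Nlrp3WT library (axis of values) for the 9 genes in microglia, for each of the 5 pairs, with exact 95% intervals for counting error and a line at 0. Hspa1a and Hspa1b lay between -2.86 and -1.97 in the 3-month pairs and between 0.69 and 1.09 in the 9-month pairs, whereas Hspa5 stayed within 0.13 of 0.

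A test over all 5 pairs did not call any member. In edgeR's quasi-likelihood test with the pair as a block, 0 of 9 members passed an adjusted p under 0.05 with an absolute log2 fold change over 1, where 3 of 12383 genes (0.0242%) did. An unadjusted p under 0.05 was seen for 2 members and for 574 genes (4.64%). Since the fit includes the pair singled out for its gap, nothing is read from this count. DESeq2 called 0 members and 6 genes. Hspa1a changed by a log2 fold of -1.14 (SE 0.51, adjusted p = 0.903, lower in 3 of 5 pairs), Hspa1b by -1.15 (SE 0.50, lower in 3 of 5) and Hsph1 by -0.30. Both HSP70 values leaned on the 3-month pairs: without the APP/PS1 pair at 3 months, the one singled out, they were -0.63 for Hspa1a and -0.63 for Hspa1b, and without the other 3-month pair -0.70 and -0.78. DESeq2 gave -0.74 and -0.69. Dnaja1 had the smallest p of the members, at -0.22 (SE 0.06, adjusted p = 0.903, lower in 5 of 5 pairs). The values of the others were -0.15 for Dnajb1, -0.10 for Hsp90aa1, -0.06 for Hspa8, -0.05 for Hsp90ab1 and -0.01 for Hspa5. Leaving out 1 pair moved Hsph1 between -0.41 and -0.20 and Hsp90aa1 between -0.15 and -0.05. It moved Hspa8 between -0.13 and -0.02, Hsp90ab1 between -0.08 and -0.01 and Hspa5 between -0.05 and 0.02. The median of the 9 members was -0.15 and that of all genes was 0.01. Nothing in the labels said that the libraries came from separate experiments, so that these p-values measure the spread between libraries.

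Whether the Nlrp3 effect differed between 3 and 9 months was tested after the data had been seen, over the 8 libraries of those ages and including the pair singled out for its gap, so that the p-values cannot be taken as independent. The difference in the log2 Nlrp3 effect (9 minus 3 months) was 3.36 for Hspa1a (SE 0.29, edgeR adjusted p = 0.0139) and 3.44 for Hspa1b (SE 0.43, adjusted p = 0.0511). Of the 9 members 1 was called, where 26 of 12282 genes (0.212%) were, and DESeq2 called 2 members and 47 genes. All 26 genes called by edgeR had a positive difference, as Hspa1a did, and the fit left 2 residual degrees of freedom. The calls rested on all 3-month libraries: without the non-diseased pair at 3 months the adjusted p of Hspa1a was 0.0690 at a difference of 3.69, and without the APP/PS1 pair at 3 months it was 0.120 at 3.07. Hsph1 (0.64, adjusted p = 0.310), Dnajb1 (0.34, adjusted p = 0.374), Hsp90ab1 (0.23, adjusted p = 0.606) and Hspa5 (-0.10, adjusted p = 0.819) did not pass. The Nlrp3 effect was not shown to differ between the APP/PS1 and the non-diseased background: Hspa1a gave -0.76 (SE 1.15, adjusted p = 1) and Hspa1b -1.17 (SE 1.11), with 0 of 9 members and 0 of 12383 genes (0%) called by edgeR, 310 genes under an unadjusted p of 0.05 and 1 gene called by DESeq2. Without the APP/PS1 pair at 3 months both differences turned sign, to 1.91 for Hspa1a and 1.59 for Hspa1b.

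The gap between the 2 APP/PS1-background libraries at 3 months was looked for in each microglial state and each other cell type with at least 20 cells in both libraries. These states and types are the authors' clusters, so their values are descriptions. Hspa1a was lower in the Nlrp3KO APP/PS1 library in 6 of 6 microglial states, with an interval below 0 in 5 of them. In homeostatic microglia (HM) it stood at 2.29 against 19.2 CPM, in interferon-response microglia (IRM) at 5.38 against 36.7 CPM and in microglia with an immediate-early gene signature (IEG) at 9.14 against 26.8 CPM. In microglia in transition (TM) it had 2 against 24 UMIs, a log2 ratio of -2.92 (-7.02 to -1.88), in proliferating microglia (PM) 0 against 5 UMIs, and in disease-associated microglia (DAM) 0 against 2 UMIs, where the interval spanned 0. The gap was thus present in homeostatic cells as in the smaller states.

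Outside the microglia, the gap in the APP/PS1 pair was also seen. In border-associated macrophages (BAM), which line the meninges and perivascular spaces, Hspa1a stood at 31.8 against 125 CPM (25 and 60 UMIs), a log2 ratio of -1.87 (-2.70 to -1.27). In the Lyve1-expressing BAM it had 2 against 29 UMIs, with a log2 ratio of -3.77 (-8.06 to -2.96), and in T cells 0 against 14 UMIs. In natural killer (NK) cells it had 2 against 1 UMIs and in B cells 0 against 3 UMIs, too few for a comparison. Hsph1 was lower in 5 of 5 of these types with all intervals below 0, among them T cells (73.8 against 148 CPM) and B cells (25.6 against 108 CPM). Dnaja1 was lower in 5 of 5 types with 5 intervals below 0, as in BAM (328 against 492 CPM). Hspa5 had no interval below 0 in any type or state of this pair, and in 2 of 5 types its interval lay above 0.

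The non-diseased pair at 3 months, which was not the pair singled out, gave lower values in most of the same cells. In HM, Hspa1a stood at 3.67 CPM in Nlrp3KO and 22.0 CPM in WT cells, in IRM at 20.9 against 39.5 CPM and in IEG at 9.40 against 29.5 CPM. In BAM it stood at 56.2 against 168 CPM (31 and 117 UMIs), a log2 ratio of -1.53 (-2.20 to -1.0), and in Lyve1-expressing BAM it had 3 against 25 UMIs (log2 ratio -1.70, -4.46 to -0.38). Hsph1 in BAM stood at 36.3 against 124 CPM and Dnaja1 at 325 against 635 CPM, whereas Hspa5 stood at 577 against 579 CPM. The exception was DAM, a state with 37 and 31 cells in this pair, in which Hspa5 (1877 against 764 CPM), Hspa8 and Hsp90ab1 were higher in the Nlrp3KO library. The gap therefore spanned both backgrounds at this age.

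Counted over members, states and types with at least 20 UMIs in the pair, intervals lay below 0 in 27 of 48 values for states and 20 of 38 for other types in the non-diseased 3-month pair, against 4.24% and 4.81% of all gene values. Above 0 lay 3 and 0 (5.43% and 4.42% of gene values). In the APP/PS1 3-month pair 26 of 49 and 24 of 37 values lay below 0, against 7% and 4.08%, and 1 and 2 above, against 7.68% and 7.42%. At 6 months 6 of 49 and 6 of 40 lay below 0, against 4.7% and 5.91%, and 6 and 1 above, against 3.85% and 5.59%. At 9 months 13 of 44 and 6 of 14 lay below 0 in non-diseased mice, against 6.13% and 5.53%, and 5 and 1 above, against 9.72% and 7.17%. In APP/PS1 mice of 9 months 9 of 42 and 5 of 26 lay below, against 6.08% and 5.38%, and 1 and 5 above, against 5.06% and 7.77%. The counts of the APP/PS1 pair at 3 months are a description, since that pair was named for its gap and the 9 genes were chosen with results of these data known. The values are not independent, since the states and types of a pair came from the same 2 libraries. Here too, Hspa8, Hsp90aa1, Hsp90ab1, Dnaja1 and Hspa5 have many more UMIs than a typical gene, which narrows their intervals. The values below 0 in the other types of non-diseased mice at 9 months were those of Hspa8 (2), Hsp90aa1 (1), Dnaja1 (2) and Hspa5 (1).

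**Figure D3:**
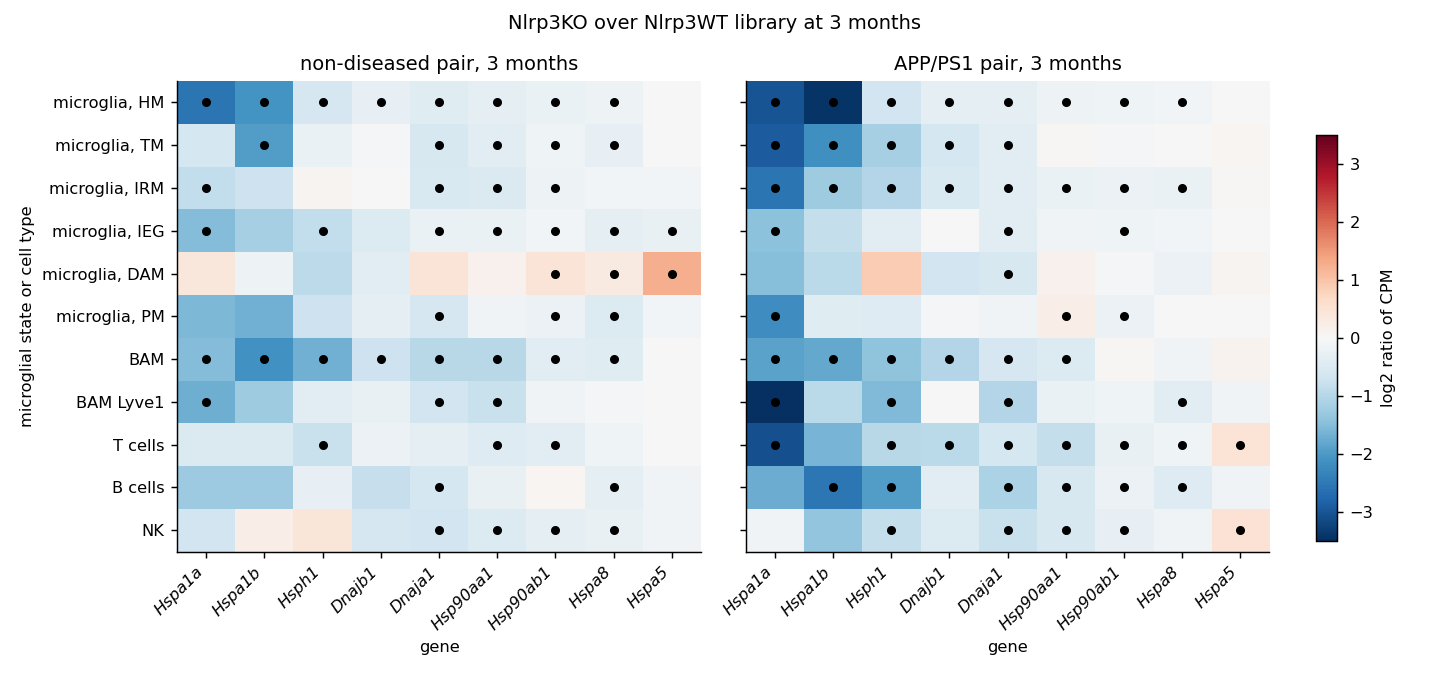
Log2 ratio of CPM in the Nlrp3KO over the Nlrp3WT library at 3 months (colour, blue for lower in Nlrp3KO) for the 9 genes (columns) in microglial states and other cell types (rows), for the non-diseased and the APP/PS1 pair, with a dot where the exact 95% interval excluded 0 and the darkest colour also standing for ratios beyond the scale. The genes other than Hspa5 were lower across most rows of both pairs. In the non-diseased pair Hspa5 was lower in 3 of 6 states and 4 of 5 other types. Its interval lay below 0 in 1 state and above 0 in 1 state there. In the APP/PS1 pair it was lower in 2 of 6 states and 2 of 5 other types, with no interval below 0.

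In the cell types too small for a ratio of their own, 13 types with under 20 cells in a library, the direction was the same. Pooled, they held 5 Hspa1a UMIs in 58 Nlrp3KO cells against 94 UMIs in 91 WT cells in the non-diseased pair (11.3 against 122 CPM), most of the latter in plasmacytoid dendritic cells (40 UMIs), cDC2 (30 UMIs) and the monocytes labelled Mono NC (12 UMIs). In the APP/PS1 pair they held 15 UMIs in 290 Nlrp3KO APP/PS1 cells against 57 UMIs in 60 APP/PS1 cells (6.82 against 77.7 CPM). The pooled Hsph1 level was 36.2 against 109 CPM and 35.0 against 85.9 CPM. Hspa5 was also lower in these pooled cells, at 359.8 against 495 CPM and at 492 against 556 CPM. The mixture of types differed between the libraries, and its part in these values was not tested.

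At the later ages the gap of Hspa1a was not detectable in BAM. At 6 months, Hspa1a stood there at 137 CPM in Nlrp3KO and 140 CPM in WT cells, with an interval that spanned 0, and in Lyve1-expressing BAM it was higher in Nlrp3KO cells, with 78.4 against 29.8 CPM (21 and 11 UMIs). At 9 months it stood in BAM at 12.9 against 33.9 CPM (4 and 12 UMIs) in non-diseased and 7.53 against 11.9 CPM (3 and 4 UMIs) in APP/PS1 mice, and both intervals spanned 0. Dnaja1 in BAM was lower in Nlrp3KO cells of the non-diseased pair at 9 months (281 against 410 CPM, log2 ratio -0.54, -0.95 to -0.15) and higher in those of the APP/PS1 pair (384 against 292 CPM, 0.39, 0.02 to 0.78). Over the 5 pairs, Hspa1a in BAM was lower in 5 of 5, with a log2 fold change of -1.08 (SE 0.26, edgeR adjusted p = 0.310), and Hspa1b gave -1.25 (SE 0.33, adjusted p = 0.418). The other members with an unadjusted p under 0.05 in BAM were Hsph1 (-0.67), Dnaja1 (-0.44) and Hsp90aa1 (-0.36), which makes 5 of 9 members, against 5.18% of genes. None of the 9 members passed the test, where 5 of 6700 genes (0.0746%) did, and DESeq2 called 0 members. In T cells 7 members could be tested and 0 passed, where 0 of 6507 genes (0%) did, 197 genes (3.03%) had an unadjusted p under 0.05 and DESeq2 called 1. An unadjusted p under 0.05 was seen for 4 of the 7 members in T cells: Hspa8 (-0.19), Hsp90aa1 (-0.39), Hsp90ab1 (-0.23) and Dnaja1 (-0.31). Both the BAM and the T cell fits include the APP/PS1 pair at 3 months, which was singled out for its gap. Nothing is therefore read from their counts of members with an unadjusted p under 0.05. The difference in the Nlrp3 effect between 3 and 9 months passed for 0 of 9 members in BAM, where 4 of 5928 genes (0.0675%) did, and Hsph1 came nearest (1.72, SE 0.51, adjusted p = 0.475). In T cells it passed for 0 of 7 members, where 26 of 6174 genes (0.421%) did, and Hsph1 was again nearest (1.1, SE 0.34, adjusted p = 0.365).

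The share of cells that held a Hspa1a UMI was lower at 3 months in the libraries with a lower level. At so few UMIs per cell this share follows from the level. It therefore does not tell fewer expressing cells from less RNA per cell. Each microglial cell was thinned to 1500 UMIs, which left out 0 cells. The share of microglia with a Hspa1a UMI was then 3.09% (exact 95% interval 2.70 to 3.51) in WT and 0.740% in Nlrp3KO libraries at 3 months, and 2.43% (1.92 to 3.04) in APP/PS1 and 0.353% (0.237 to 0.507) in Nlrp3KO APP/PS1 libraries. It was 2.55% and 2.19% at 6 months, and 0.637%, 1.04%, 0.369% and 1.20% in the WT, Nlrp3KO, APP/PS1 and Nlrp3KO APP/PS1 libraries at 9 months. Unthinned, the 3-month shares were 7.25% and 2.0% in non-diseased mice and 8.43% and 1.02% in APP/PS1 mice. For comparison, 1 of 149 NK cells of the Nlrp3KO APP/PS1 library (0.671%, 0.0170 to 3.68) held a thinned UMI, and 0 of its 98 T cells did (exact upper limit 3.69%). These cells do not set a background below the share in its microglia at this depth. Whether such UMIs are background or the cells' own RNA was not tested. In the WT and APP/PS1 libraries at 3 months 0 of 33 and 0 of 40 NK cells held one, which allows shares of up to 10.6% and 8.81% (exact upper limits), so that these few cells do not set a background below the shares in microglia there either. T cells held thinned shares of 7.41% (2 of 27) and 5.26% (3 of 57) in the same libraries. The median UMIs per cell of NK cells at 3 months were 5406 to 7994.5 before thinning. In BAM the thinned share was 18.5% in WT and 3.57% in Nlrp3KO at 3 months, and 15.1% in APP/PS1 and 2.34% in Nlrp3KO APP/PS1.

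Cells with a Hspa1a UMI also held more of the other cytosolic chaperones. After thinning, 611 microglia held a Hspa1a UMI and 39936 did not. Hspa1b stood at 64.4 CPM in the former and 5.51 CPM in the latter, Hsph1 at 87.3 against 27.8 CPM, Dnajb1 at 100.4 against 54.1 CPM and Dnaja1 at 610 against 291 CPM. Hsp90aa1 stood at 535 against 257 CPM, Hsp90ab1 at 1664 against 1003 CPM and Hspa8 at 1309 against 910 CPM. Of the 8 libraries with at least 20 cells that held a UMI, Hsph1, Dnaja1, Hspa8 and both HSP90 genes were higher in such cells in 8, Dnajb1 in 7 and Hspa1b in 5. Hspa5 differed least, with 991 against 838 CPM, and was higher in 6 of 8. The cytosolic members were thus higher in the same cells, in pooled values.

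**Figure D4:**
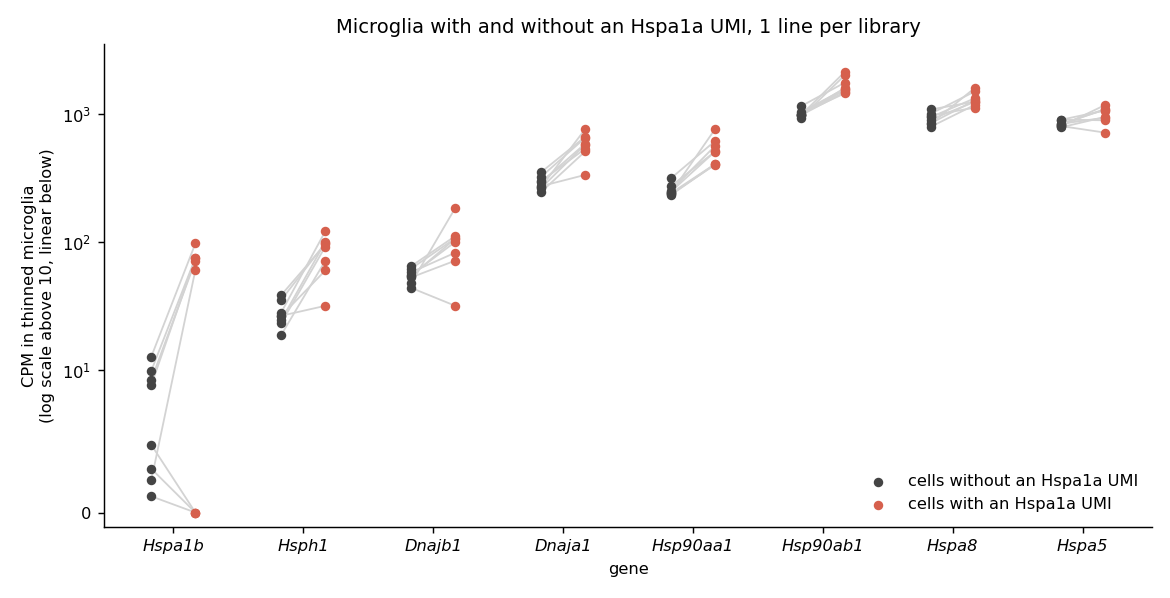
CPM (axis logarithmic above 10 and linear below) of the 8 other genes in microglia without (dark points) and with (red points) a Hspa1a UMI, each cell thinned to 1500 UMIs and each grey line joining the values of 1 of the 8 libraries with at least 20 such cells. The lines of Hsph1, Dnaja1, Hsp90aa1, Hsp90ab1 and Hspa8 rose in 8 of 8 libraries, those of Dnajb1 in 7, of Hspa5 in 6 and of Hspa1b in 5.

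The levels of the members also differed between cell types. Pooled over all libraries, Hspa1a stood at 11.3 CPM in microglia and at 83.3 CPM in BAM (725 cells), 43.8 CPM in Lyve1-expressing BAM (382 cells), 98.9 CPM in the monocytes labelled Mono NC (138 cells) and 53.8 CPM in plasmacytoid dendritic cells (102 cells). It stood at 8.10 CPM in T cells, 3.39 CPM in NK cells and 2.57 CPM in B cells. These pooled values rest on unequal libraries: 40 of the 50 UMIs of the plasmacytoid dendritic cells came from 10 cells of the WT library at 3 months, and the single library with at least 20 such cells held 0. In neutrophils Hspa1a had 2 UMIs (1.98 CPM). In the libraries with at least 20 cells of a type, Hspa1a in BAM exceeded that in microglia in 10 of 10 libraries, by a log2 ratio of 2.54 ± 1.01 (SD). In the order of mean levels (BAM, Lyve1-expressing BAM, T cells, microglia, NK, B cells), none of the 5 neighbouring pairs differed by more than their SD over libraries.

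Lymphocytes held more of most cytosolic members than microglia and less of the ER chaperone. Hsph1 stood at 29.0 CPM in microglia, 95.8 CPM in T cells and 91.8 CPM in NK cells, higher in 10 of 10 libraries for T cells (log2 ratio 1.95 ± 0.31) and in 7 of 7 for NK cells. Dnaja1 stood at 297 CPM in microglia, 605 CPM in T cells (10 of 10 libraries, 1.18 ± 0.17) and 669 CPM in NK cells. Hsp90aa1 stood at 267 CPM in microglia, 479 CPM in T cells and 651 CPM in B cells. In T cells Hspa8 (1656 against 937 CPM) and Hsp90ab1 (1699 against 1037 CPM) also exceeded microglia, in 10 of 10 libraries each. The higher levels were not particular to lymphocytes. BAM exceeded microglia for Hsph1, Dnaja1, Hspa8 and both HSP90 genes in 10 of 10 libraries. Hspa5 had the reverse order, with 855 CPM in microglia, 628 CPM in BAM, 494 CPM in NK cells, 399 CPM in B cells and 328 CPM in T cells, and was lower in T cells than in microglia in 10 of 10 libraries (log2 ratio -1.42 ± 0.25). For Hspa5 the mean levels of microglia and Lyve1-expressing BAM, and of NK and B cells, lay within 1 SD of each other. In neutrophils (79 cells) Hspa8 stood at 371 CPM, Hsp90ab1 at 327 CPM and Hspa5 at 205 CPM, and Hspa1b had 0 UMIs.

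**Figure D5:**
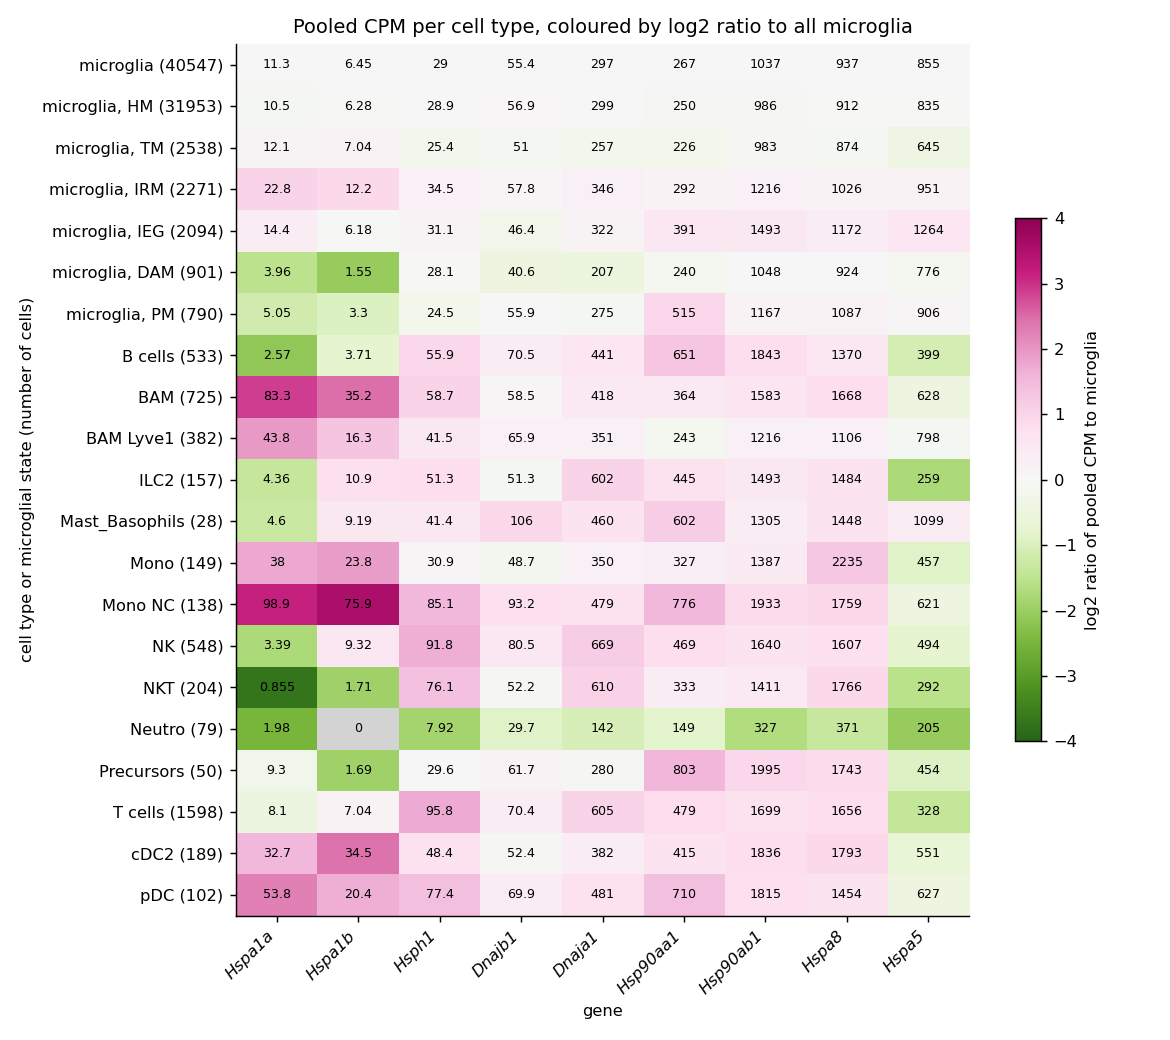
Pooled CPM (numbers in the cells) of the 9 genes (columns) in microglial states and other cell types (rows, with cell counts), coloured by the log2 ratio to all microglia. Hspa1a was highest in BAM (83.3 CPM) and the monocytes labelled Mono NC (98.9 CPM), and Hspa5 was lower in T cells (328 CPM) than in microglia (855 CPM).

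Within microglia, the states differed less than the types did. IEG microglia held the highest Hspa8 (1172 CPM), Hsp90ab1 (1493 CPM) and Hspa5 (1264 CPM) of the 6 states, against 912, 986 and 835 CPM in HM, and each was higher than in HM in 10 of 10 libraries. The corresponding log2 ratios were 0.34 ± 0.12, 0.60 ± 0.23 and 0.58 ± 0.21 (SD, n = 10). Not all members were higher in IEG than in HM: Dnajb1 was so in 1 of 10 libraries (-0.26 ± 0.18), Hspa1b in 5 (0.39 ± 0.83) and Hsph1 in 6 (0.15 ± 0.31). IRM held the highest Hspa1a (22.8 CPM against 10.5 CPM in HM) and Hspa1b (12.2 CPM against 6.28 CPM), higher than in HM in 9 and 10 of 10 libraries (1.34 ± 0.74 and 1.73 ± 0.84). These log2 ratios carry a small count added to each side, not scaled to the size of the sums. It raises the ratio of a small state over HM where UMIs are few, as for Hspa1a and Hspa1b. PM, the dividing cells, held the highest Hsp90aa1, 515 CPM against 250 CPM in HM (1.07 ± 0.38, 10 of 10 libraries). TM held the lowest Hspa5 (645 CPM), lower than HM in 10 of 10 libraries (-0.40 ± 0.07). In DAM Hspa1a did not differ from HM beyond the spread between libraries (-0.48 ± 1.36, higher in 2 of 10). For Hspa1a, Hspa1b, Hspa8, Hsph1, Dnajb1 and Dnaja1, no neighbouring states in the order of mean levels differed by more than their SD. With the states of the annotation of all CD45+ cells in place of that of microglia, 5 members in place of 3 were highest in IEG, the added ones being Hsph1 and Dnaja1.

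The question of amyloid pathology was addressed by comparing each APP/PS1-background library with the non-diseased one that shared its Nlrp3 genotype and age, in 4 pairs. Hspa1a was lower in the APP/PS1 library in each pair, by a log2 ratio of -0.14 and -0.75 at 3 months (Nlrp3WT and Nlrp3KO) and of -0.58 and -0.31 at 9 months. Over the 4 pairs the fitted change was -0.39 (SE 0.13, edgeR adjusted p = 0.544) for Hspa1a and -0.46 (SE 0.18, adjusted p = 0.646) for Hspa1b. Without the Nlrp3KO pair at 3 months they were -0.25 for Hspa1a and -0.25 for Hspa1b, and without the Nlrp3WT pair at 3 months -0.55 and -0.72. Dnajb1 was lower in 4 of 4 pairs by -0.21 (SE 0.05, adjusted p = 0.341) and Dnaja1 by -0.12 (SE 0.05, adjusted p = 0.657). None of the 9 members was called, where 5 of 12282 genes (0.0407%) were, and DESeq2 called 0 members and 22 genes. An unadjusted p under 0.05 was seen for 4 members and for 918 genes (7.47%). The 3-month pairs of this comparison hold both libraries singled out for their gap, in microglia as in the other cell types. Nothing is therefore read from this count. Hspa5 was lower in both 3-month pairs (-0.10 and -0.08) and higher in both 9-month pairs (0.14 and 0.16). In BAM Hspa1a was also lower in 4 of 4 pairs (-0.70, adjusted p = 0.339), where 16 of 5928 genes (0.27%) were called and 0 members were. In T cells 0 of 7 members were called and 10 of 6174 genes (0.162%) were.

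Between 9 and 3 months, compared within each genotype, 0 of 9 members were called, where 480 of 12282 genes (3.91%) were. Hspa8 was higher at 9 months in 4 of 4 genotypes, by 0.29 (SE 0.07, edgeR adjusted p = 0.0273), which passed on the adjusted p alone, as 23.3% of genes did. That pass was lost without APP/PS1 (0.26, adjusted p = 0.116) and without Nlrp3KO APP/PS1 (0.23, adjusted p = 0.0809). The median mitochondrial share was 2.35 to 3.16% in the 3-month and 3.39 to 3.67% in the 9-month libraries, and its part in this value was not tested. Hspa1a gave -0.89 (SE 0.64, adjusted p = 0.347), lower in 2 of 4 genotypes, and Hspa1b -1.18 (SE 0.64, adjusted p = 0.217). Leaving out 1 genotype moved Hspa1a between -1.47 (without Nlrp3KO) and -0.28 (without APP/PS1), and Hspa1b between -1.89 (without Nlrp3KO) and -0.58 (without WT). The remaining values were -0.31 without WT and -1.42 without Nlrp3KO APP/PS1 for Hspa1a, and -0.61 without APP/PS1 and -1.62 without Nlrp3KO APP/PS1 for Hspa1b. Dnajb1 was lower in 4 of 4 genotypes (-0.21, adjusted p = 0.0959) and Hspa5 higher in 3 of 4 (0.19, adjusted p = 0.118). Since each age was 1 batch, none of these values tells age from batch.

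Among the other genes of the folding machinery, the Nlrp3 and APP/PS1 fits called none. No list was tested as a set. With Nlrp3 deletion 46.3% of all genes had a lower value. Of the tested cochaperones and HSF genes, 18 of 27 had a lower and 9 a higher value, with a median log2 fold change of -0.03 against 0.01 for all genes. The largest values were those of Bag1, a nucleotide exchange factor (0.50), and Cryab, a small heat shock protein (0.28). All 7 tested subunits of the TRiC chaperonin, the ring that folds actin and tubulin, had a lower value with a median of -0.01, whereas 13 of 20 ER folding genes had a higher value (median 0.03) and 5 of 8 mitochondrial chaperones a lower one (median -0.02). The largest values there were Cct7 (-0.06) and Cct3 (-0.05), Dnajc3 (0.11) and Ddit3 (-0.10), and Lonp1 (0.16) and Trap1 (0.09). With APP/PS1, where 48.7% of all genes had a lower value, 21 of 27 cochaperones had a lower value (median -0.06). A higher value was seen for 15 of 20 ER folding genes (median 0.07). Their largest values were Bag1 (0.65) and Cryab (-0.63), and Sdf2l1 (0.19) and Hyou1 (0.15). Between 9 and 3 months no gene of the 4 folding lists was called, and St13, an HSP70-binding cochaperone, had the largest value (0.53). With Nlrp3 deletion 9 of 16 immediate-early genes had a lower value (median -0.03), and Jund (0.54) and Klf2 (0.38) had the largest ones. With APP/PS1 13 of 16 had a higher value, led by Nr4a1 (1.20) and Egr1 (0.74), and 0 were called. Between 9 and 3 months 4 of 16 immediate-early genes were called, all higher, against 3.91% of genes called in either direction: Fos (1.76), Dusp1 (1.68), Egr1 (1.33) and Fosb (1.14). The summed level of the 16 immediate-early genes ranged from 1140 to 2075 CPM between libraries, and its part in the members' values was not tested.

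Over the 10 microglia sums, the genes most like the mean of the 9 members, among 6321 other genes of at least 20 CPM, were Pnpla7, a lysophospholipase (Pearson r = 0.93), and Ppid, an HSP90-binding cyclophilin (0.84). They were followed by Rubcn (0.84), Socs6 (0.83), Narf (0.82), Akt2 (0.81), Slc36a1 (0.81), Tbc1d22a (0.81), Eif4a2 (0.79) and Ahsa2, an HSP90 cochaperone (0.79). The median over all 6321 genes was 0.15, and negative values reached -0.92. The 20 genes of the cochaperone list with at least 20 CPM had a median r of 0.24. They ran from -0.50 to 0.79, with Ahsa2 as the highest. The correlation of Hspa1a with the log2 median UMIs per cell of the library was 0.39 and that with its mitochondrial share -0.29, and those with the mitochondrial share were 0.57 for Hspa8, 0.57 for Hspa5 and -0.43 for Dnajb1. Their part in the levels was not tested. These correlations are descriptions over libraries that share batches.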

How the data were processed

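CD45+ brain cells of 10 libraries were measured on the 10x Genomics 3′ platform. The authors mapped the reads to mm10 with Cell Ranger, removed outlier cells, and deposited raw UMI counts per gene and cell with a sample name, cell type, microglial state, batch and doublet score for each cell. The deposited counts were used as they stand. The authors also deposited, per cell, the percent of mitochondrial UMIs and the fraction of ribosomal UMIs (computed in Seurat), and a doublet score given as a fraction, whose tool is not given in the sources used here. Of 52369 cells, 6897 under 2 sample names that matched no label were not used. The state and type names are the authors'. No cell was removed as a doublet in the main values, and cells of a doublet score over 0.5 were left out in an alternative.

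Counts were summed per library and cell type (at least 20 cells) and given as CPM with exact Poisson intervals. Ratios of 2 libraries carry exact conditional binomial intervals (95%) and a prior count of 2. Ratios between states or types within a library carry a smaller count on each side, not scaled to the size of the sums. Sums were tested with edgeR 4.0.16 (quasi-likelihood F test, TMM, filterByExpr, pair as block, R 4.3.3), and p-values were adjusted over all genes by Benjamini-Hochberg; DESeq2 1.42.0 was an alternative. The call was an adjusted p under 0.05 with an absolute log2 fold change over 1. On simulated counts with 200 genes changed by a log2 fold of 2, the Nlrp3 test recovered 100% over 12383 genes, and the test of the Nlrp3 effect by age 97.5% over 12282 genes, with 5.80% false among its calls. In the Nlrp3 test the planted changes were the same in every pair and larger than the fitted change of any member. Its recovery therefore does not give the power for the members. Gene positions are those of GENCODE M21 and promoter sequences those of RefSeq. The 9 genes, the further gene lists, the named pair at 3 months and the tests were chosen with earlier results of these data known. The named genes were the 9 members, the called and the leading genes of 5 lists, and the 10 genes most like the members' mean. All other alternatives are in the closing section.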

Additional observations from a re-analysis of the deposited data

Results flagged for a closer look

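In groups of 4 to 6 libraries, 5 of the 36 groups examined held a library far from the others, where chance gives about 1 in 20 independent groups. The groups share libraries, and 3 of the 5 come from the APP/PS1 pair at 3 months, which was singled out for its gap. The number is therefore not to be read against that rate. Hspa1a (20.3 CPM) and Hspa1b (11.4 CPM) of the APP/PS1 library at 3 months stood above the 3 others of the APP/PS1 background. Hsp90aa1 (322 CPM) and Hsp90ab1 (1171 CPM) of the WT library at 3 months stood above the 5 others of the non-diseased background. Hsp90ab1 of the Nlrp3KO APP/PS1 library at 3 months (963 CPM) stood below the 3 others of its background.

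The mean log2 Nlrp3 effect differed in direction between the ages. In the mean of the pair ratios it was larger at 9 than at 3 months by 3.31 for Hspa1a and by 3.31 for Hspa1b, and its difference was -0.13 for Hspa5. The differences fitted by edgeR were 3.36 (adjusted p = 0.0139), 3.44 (adjusted p = 0.0511) and -0.10 (adjusted p = 0.819) in this order. The test was added after the data had been seen and includes the pair singled out for its gap. The adjusted p of Hspa1a was 0.120 without that pair and 0.0690 when the WT and Nlrp3KO libraries of 3 months were left out. The APP/PS1 effect went down in both 3-month pairs and up in both 9-month pairs for 4 genes, with mean differences of 0.19 for Hspa8, 0.17 for Hsp90aa1, 0.20 for Hsp90ab1 and 0.24 for Hspa5, and these differences were not tested.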

How the results depend on the processing

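No member was called for Nlrp3 deletion or APP/PS1 on the adjusted p alone, with DESeq2, its size factors, no filter on low counts, homeostatic microglia only, no cells of high doublet score or any pair left out, nor for either without the pair block. For the difference between backgrounds the adjusted p alone, DESeq2, no filter and leaving out each pair were run, and none called a member. Between 9 and 3 months, 1 member was called on the adjusted p alone (Hspa8). For the Nlrp3 effect between 3 and 9 months, 2 members were called in place of 1 with DESeq2, with its size factors, without a filter and without cells of high doublet score (Hspa1b joined Hspa1a), and 0 to 2 when 1 pair was left out (0 without either 3-month pair). The sign turned for Hspa5 under Nlrp3 deletion, with 0.016 in homeostatic microglia, 0.0021 without cells of high doublet score and -0.046 to 0.017 when 1 pair was left out. It also turned for the difference between backgrounds, with -1.95 to 1.91 for Hspa1a and -2.12 to 1.59 for Hspa1b (highest without the APP/PS1 pair at 3 months). Counted over all members and settings, the sign turned in 3 of 108 values for Nlrp3 deletion (1 member), 11 of 99 for APP/PS1 (5 members: Hspa8, Hsp90aa1, Hsp90ab1, Hsph1 and Hspa5), 2 of 90 for age (2 members), 20 of 72 for the difference between backgrounds (9 members) and 1 of 90 for the Nlrp3 effect by age (1 member). The number of members highest in IEG was 5 with the other annotation. Over all genes, calls for Nlrp3 deletion were 6 with DESeq2 and 8 when the WT and Nlrp3KO libraries of 9 months were left out (3 in the main test), those for APP/PS1 were 22 with DESeq2, 0 in homeostatic microglia and 0 to 11 when 1 pair was left out (5 in the main test), those for age were 225 in homeostatic microglia and 246 to 461 without 1 genotype (480), and those for the Nlrp3 effect by age were 47 with DESeq2 and 0 to 378 without 1 pair (26). The cause was not tested. The blocks were pairs of libraries. No paired analysis by replicate number was possible because the labels give each genotype at each age 1 library and no replicate numbers. With 1 library a side, the ratios of a pair hold counting error only.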
